A study of Mus musculus with 29 samples.

Results

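The cathepsins, the subunits of the vacuolar proton pump (V-ATPase) and the lysosome-associated membrane proteins LAMP1 and LAMP2 were followed across mouse hearts with and without a tumour. Members were all genes of the deposited table whose symbol is Cts with 1 further letter, begins with Atp6v or Atp6ap, or is Lamp1 or Lamp2, which gave 45 of 20411 genes. These were 18 cathepsins, 25 V-ATPase subunits and accessory subunits, and 2 LAMP genes. Enough reads for a test were counted for 31 of them, made up of 11 cathepsins, 18 V-ATPase genes and both LAMP genes.

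All hearts came from BALB/c mice labelled wild type, each with an animal number of its own, and every mouse had received an adeno-associated virus into a vein. The virus carried a gene under the Tbg promoter, whose activity is confined to liver cells, so the vector was not directed at the heart. C26_REVERBa mice (10 hearts) received the vector for REV-ERBα, a repressor of the circadian clock from the nuclear receptor family, and C26 tumour cells under the skin 10 days later. C26_GFP mice (10 hearts) received the vector for green fluorescent protein (GFP) and the same tumour cells. PBS_REVERBa mice (5 hearts) received the REV-ERBα vector, and PBS_GFP mice (4 hearts) the GFP vector, each followed by saline (PBS) in place of a tumour. C26 is a colon carcinoma line of BALB/c origin and is widely used to bring about cachexia, in which mice with a tumour lose muscle and fat.

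Libraries of total RNA held 3207497 to 16853646 counts. Of these, 3 C26_GFP and 2 PBS_GFP libraries were above 10000000 counts. All 12 cardiomyocyte markers were present in the libraries, at a summed level of 48320 to 62460 CPM (counts scaled to library size, as in edgeR's cpm) in C26_REVERBa, 45850 to 58530 in C26_GFP, 55690 to 66520 in PBS_REVERBa and 58790 to 63520 in PBS_GFP hearts. In C26_GFP hearts 7 of these 12 markers were lower and 1 was higher than in PBS_GFP hearts (66.7% together, against 28.2% of all genes tested). The summed level of 6 atrial markers ran from 42.96 to 4645 CPM over all hearts and was highest at 3814 CPM in C26_REVERBa, 4645 in C26_GFP, 2037 in PBS_REVERBa and 3447 in PBS_GFP hearts.

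Lysosomes break down proteins, lipids and sugars in an acid lumen. The V-ATPase acidifies that lumen: its V1 sector, outside the membrane, hydrolyses ATP and turns a rotor, and its V0 sector, within the membrane, carries the protons. Cathepsins are the lysosomal proteases, most of them cysteine proteases, and LAMP1 and LAMP2 are the main glycoproteins of the lysosomal membrane, LAMP2 being required for the fusion of autophagosomes with lysosomes in heart muscle. Many lysosomal genes carry near their start a site for the transcription factor TFEB that has CACGTG at its core.

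The 250 bases before the start of 6 members are shown, 3 that rose with the tumour in GFP mice without overlap between the groups (Ctsl, Lamp2 and Ctso) and 3 that did not pass the test there (Ctsd, Lamp1 and Atp6v0b). The last 3 were picked because they carry CACGTG more than 1 time, so the contrast between the shown sets is made by that choice and says nothing about which members rose. Sequences are from RefSeq on GRCm38.p6, each is written 5′ to 3′ in the direction of the gene, and capitals mark CACGTG.
Ctsl, chr13:64370521-64370770, minus strand: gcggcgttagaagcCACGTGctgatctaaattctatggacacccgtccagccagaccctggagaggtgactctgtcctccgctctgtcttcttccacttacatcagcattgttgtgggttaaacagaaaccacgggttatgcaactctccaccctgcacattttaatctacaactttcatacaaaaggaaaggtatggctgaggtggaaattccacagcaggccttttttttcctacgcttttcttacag
Lamp2, chrX:38456461-38456710, minus strand: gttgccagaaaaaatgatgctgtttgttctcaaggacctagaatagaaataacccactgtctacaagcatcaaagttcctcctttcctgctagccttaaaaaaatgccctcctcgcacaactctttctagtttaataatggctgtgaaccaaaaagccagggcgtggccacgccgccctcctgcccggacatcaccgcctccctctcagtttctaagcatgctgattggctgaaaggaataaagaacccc
Ctso, chr3:81932351-81932600, plus strand: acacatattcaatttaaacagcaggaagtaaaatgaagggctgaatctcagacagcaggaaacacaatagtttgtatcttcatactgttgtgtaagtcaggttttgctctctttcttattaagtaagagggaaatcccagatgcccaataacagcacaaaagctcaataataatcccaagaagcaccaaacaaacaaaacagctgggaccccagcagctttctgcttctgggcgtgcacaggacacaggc
Ctsd, chr7:142387828-142388077, minus strand: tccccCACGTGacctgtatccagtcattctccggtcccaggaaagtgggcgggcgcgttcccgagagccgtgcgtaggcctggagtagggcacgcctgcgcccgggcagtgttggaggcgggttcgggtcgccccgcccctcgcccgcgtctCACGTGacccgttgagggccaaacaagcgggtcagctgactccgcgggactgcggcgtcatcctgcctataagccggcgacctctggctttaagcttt
Lamp1, chr8:13158911-13159160, plus strand: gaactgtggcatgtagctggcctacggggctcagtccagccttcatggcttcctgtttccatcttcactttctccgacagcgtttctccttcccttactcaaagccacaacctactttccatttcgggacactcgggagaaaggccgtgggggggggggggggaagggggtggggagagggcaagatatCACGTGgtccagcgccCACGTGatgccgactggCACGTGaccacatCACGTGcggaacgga
Atp6v0b, chr4:117887330-117887579, minus strand: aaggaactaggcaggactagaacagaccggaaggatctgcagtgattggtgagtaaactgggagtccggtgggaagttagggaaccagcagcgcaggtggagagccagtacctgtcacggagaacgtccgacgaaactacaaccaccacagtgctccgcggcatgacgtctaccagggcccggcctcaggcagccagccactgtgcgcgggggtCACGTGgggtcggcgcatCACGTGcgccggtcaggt

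In these windows CACGTG stood 4 times in Lamp1, 2 times in Ctsd, 2 times in Atp6v0b and 1 time in Ctsl, and it was not found in Lamp2 or Ctso. The windows follow 1 start per promoter in the RefSeq table, and which start the heart uses was not examined, so a window may miss the promoter in use. The RefSeq table held 38 promoters of 34 members, each reaching from 250 bases before to 50 bases after the start, and none of the other 11 members. Of the 7 members that passed a test below, 5 had a promoter there. CACGTG, which reads the same on both strands, was found in 9 of the 38 member promoters (23.7%), against 7.15% of all 32851 promoters in the table and 9.83% of the 12637 promoters of genes with enough reads for a test. The 9 members were Atp6v0b, Atp6v0d1, Atp6v0e, Atp6v1a, Ctsa, Ctsd, Ctsf, Ctsl and Lamp1. The longer forms TCACGTG and GTCACGTG, which contain it and were searched on both strands, were in 7 and 5 of the 38 member promoters, against 3.77% and 2.25% of all promoters and 5.81% and 4.04% of those of tested genes. TCACGTGA was in 5 of the 38, against 0.974% and 1.76%, and the palindrome that extends GTCACGTG to the other side in 0 of the 38, against 0.326% and 0.673%.

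The 14 members with too few reads for the test include several known from other tissues. Ctsg of neutrophils, Ctsm, Ctsq and Ctsr, 3 cathepsins of the rodent placenta, and Atp6v1e2, a testis form of the E subunit, had 0 counts in every heart. Ctsj reached 1 count in any heart, Atp6v1g3 1, Atp6ap1l 2, Atp6v0a4 5, Atp6v1b1 5 and Atp6v1c2 5. Ctse and Ctsw, of which Ctsw is a cathepsin of cytotoxic lymphocytes, reached 8 counts each, and Atp6v0d2, the d subunit of osteoclasts, reached 13.

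Levels are compared between genes as CPM per kilobase of the length counted for the gene, which leaves out Atp6v0c, whose counted length is 34 bases against 1183 for its annotated transcript. In PBS_GFP hearts the order began with Ctsd, the aspartic protease cathepsin D, at 516.3 ± 24.7 CPM per kb (SD, n = 4). Lamp1 followed at 226.3 ± 10.8 and Ctsb, the cysteine protease cathepsin B, at 164.0 ± 4.82 CPM per kb. The ranges of these 3 genes did not overlap each other or that of the next gene. The next 4 were V-ATPase genes, Atp6v1e1 of the stator stalk at 73.4 ± 3.36, Atp6v1g1 of the same stalk at 69.5 ± 5.59, the accessory subunit Atp6ap1 at 63.1 ± 2.72 and Atp6v1f of the rotor at 60.5 ± 5.79 CPM per kb, and each overlapped its neighbour. From Atp6v0b, of the proton-carrying ring, at 43.1 ± 2.66 down to Ctsa at 33.3 ± 0.67 CPM per kb, neighbours overlapped, as they did from Lamp2 at 28.6 ± 1.92 through Ctsl at 25.6 ± 2.60 to Atp6v0a2 at 18.3 ± 1.02 CPM per kb. Atp6v1a, the catalytic subunit, stood at 11.2 ± 0.77 CPM per kb. The lowest were Ctss at 3.76 ± 1.37, Atp6v1h at 3.67 ± 0.47, Ctsk at 3.14 ± 0.36, Atp6v1g2 at 2.71 ± 0.66 and Ctsc at 2.56 ± 0.46 CPM per kb, with overlapping ranges. Counted lengths also departed from the annotated transcript for Ctsc (7466 against 2493 bases), Ctsl (3509 against 1971) and Atp6v1d (1410 against 3667), so their places in the order are less sure.

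**Figure D1:**
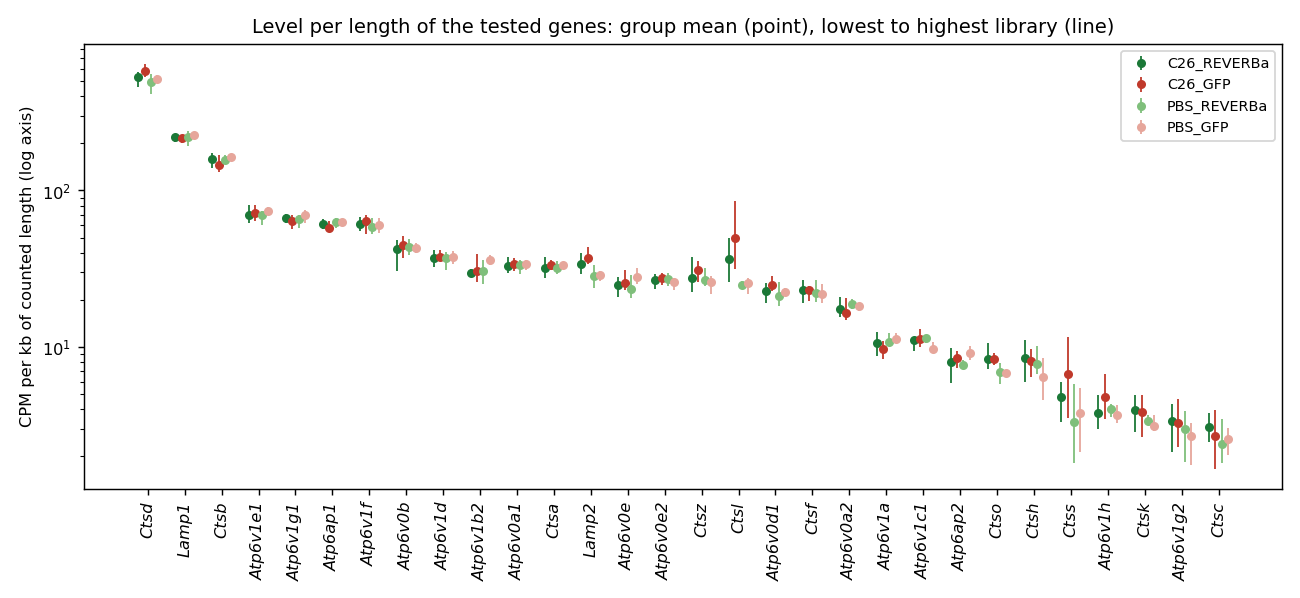
Level of 30 tested members in CPM per kilobase of counted length (vertical log axis), in order of the PBS_GFP mean; points are group means and lines run from the lowest to the highest library. Ctsd, Lamp1 and Ctsb stand above the V-ATPase genes in every group, and Ctsl is the gene whose C26_GFP range reaches farthest above its PBS_GFP range.

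Where a V-ATPase subunit has several genes, most transcripts came from 1 of them for most subunits. As a share of the level per length of the members that encode forms of the subunit, Atp6v1b2 made up 99.9% (98.6 to 100.0% over the 29 libraries), Atp6v0d1 99.5% (96.9 to 100.0%), Atp6v1c1 99.1% (95.5 to 100.0%) and Atp6v1g1 95.4% (93.5 to 97.7%). The a and e subunits were mixed. Atp6v0a1, a form also used at synapses, made up 65.7% of the a subunits (62.5 to 70.8%), the rest being almost all Atp6v0a2 (Tcirg1, the a3 form, is not a member and is not in this share), and Atp6v0e2 made up 51.6% of the e subunits (45.3 to 58.0%). By group, the Atp6v0a1 share was 65.5 ± 1.49% in C26_REVERBa, 67.2 ± 1.94% in C26_GFP, 63.6 ± 1.36% in PBS_REVERBa and 64.9 ± 0.55% in PBS_GFP hearts (SD, n = 10, 10, 5 and 4), and these group ranges overlapped between the tumour groups.

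The first comparison asks what the tumour did in mice with the GFP vector. In C26_GFP hearts Ctsl, Ctss, Ctso, Ctsz, Lamp2 and Atp6v1c1 rose and Atp6v1b2 fell relative to PBS_GFP hearts, and the other 24 tested members did not pass edgeR's quasi-likelihood test at an adjusted p of 0.05. Those 7 of 31 (22.6%) stand against 28.2% of all 12928 genes tested, of which 14.2% were higher and 14.0% lower, so the share of members that changed was not above that of all genes. The median log2 change of the 31 members was 0.07, against 0.00 for all genes. In this and the other comparisons, the share of all genes without overlap between the groups was not counted. Absence of overlap is therefore given gene by gene and does not set a member apart from other genes. Without the 5 libraries above 10000000 counts, 2 members passed, Ctsl and Lamp2, both higher, and without PBS_GFP replicate 4, 3 were higher.

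Among cathepsins 4 of 11 tested rose and none fell (36.4%, against 28.2% of all genes changed and 14.2% higher), with a median log2 change of 0.26. All 4 were cysteine cathepsins, but 9 of the 11 tested belong to that class, with only 1 aspartic and 1 serine cathepsin. Ctsl, at chr13:64361890-64370520 on the minus strand, encodes cathepsin L, an endopeptidase whose transcript is known to be raised in wasting skeletal muscle. Its level was 111.0 CPM in the lowest, 150.1 in the median and 299.9 in the highest of the 10 C26_GFP hearts, against 97.01, 93.14, 92.67 and 76.46 CPM in the 4 PBS_GFP hearts. Every C26_GFP heart was above the highest PBS_GFP heart, with replicates 7 and 10 highest at 299.9 and 231.2 CPM. The difference was 1.93-fold (log2 0.95 ± 0.20 SE, 95% interval 0.55 to 1.35, edgeR adjusted p = 0.000666).

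Ctss encodes cathepsin S, which trims the invariant chain in antigen-presenting cells, and lies at chr3:95526786-95556405 on the plus strand. It had 4.78, 8.96 and 15.8 CPM in the lowest, median and highest C26_GFP hearts, against 5.54, 7.38, 4.59 and 2.91 CPM in PBS_GFP hearts. The groups overlapped, 6 of 10 C26_GFP hearts lying above the highest PBS_GFP heart. Its log2 change was 0.77 ± 0.26 (1.70-fold, edgeR adjusted p = 0.0268), with as few as 10 counts in a PBS_GFP library, and leaving out PBS_GFP replicate 1, 3 or 4 ended the call (adjusted p 0.0665 to 0.101).

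Ctso, for cathepsin O, a cysteine protease whose substrates are poorly known, lies at chr3:81932616-81956725 on the plus strand. C26_GFP hearts had 26.47, 28.96 and 31.66 CPM at the lowest, median and highest, against 22.45, 23.0, 24.39 and 23.55 CPM in PBS_GFP hearts. These ranges did not overlap, and the log2 change was 0.32 ± 0.09 (edgeR adjusted p = 0.00902). Ctsz encodes cathepsin Z, a carboxypeptidase, at chr2:174427494-174438992 on the minus strand, where it overlaps Nelfcd. It had 35.74, 42.48 and 49.02 CPM in the lowest, median and highest C26_GFP hearts, against 34.65, 38.62, 39.31 and 30.24 CPM in PBS_GFP hearts. The groups overlapped, with 7 of 10 C26_GFP hearts above the highest PBS_GFP heart, and the log2 change of 0.27 ± 0.10 (1.21-fold, edgeR adjusted p = 0.0426) did not pass when any 1 of 7 libraries was left out, PBS_GFP replicates 1 and 4 and C26_GFP replicates 1, 3, 5, 6 and 10 (adjusted p 0.0502 to 0.164). Neither the labels nor the table give the strand setting of the counting, so the values of Ctsz, as of the other tested members that overlap another gene (Atp6v1b2 with Slc18a1, Ctsa with Neurl2 and Pltp, and Ctsb with Fdft1), are uncertain.

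The 2 cathepsins with the highest levels did not pass. Ctsd averaged 1140 ± 76.0 CPM in C26_GFP hearts and 1009 ± 48.2 CPM in PBS_GFP hearts (SD, n = 10 and 4), a log2 change of 0.18 ± 0.07 (edgeR adjusted p = 0.0542). Ctsb averaged 577 ± 49.4 CPM in C26_GFP hearts and 651 ± 19.1 CPM in PBS_GFP hearts, which is a log2 change of -0.17 ± 0.07 (adjusted p = 0.054), and 8 of 10 C26_GFP hearts were below the lowest PBS_GFP heart. Both lay close to the threshold, and of the 12 alternative fits and the 14 fits that left out 1 library, Ctsd passed in 10 and Ctsb in 6. Ctsh, an aminopeptidase, and Ctsk, a collagen-degrading protease of osteoclasts, had log2 values of 0.27 ± 0.14 (adjusted p = 0.16) and 0.26 ± 0.15 (0.209). Ctsf, Ctsc, the dipeptidyl peptidase that activates serine proteases of granules, and Ctsa, a serine carboxypeptidase that protects beta-galactosidase, had log2 values of 0.07 ± 0.09, 0.07 ± 0.18 and 0.01 ± 0.06.

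The LAMP genes differed in outcome. Lamp2, at chrX:38401357-38456460 on the minus strand, had 74.61, 79.02 and 95.67 CPM in the lowest, median and highest C26_GFP hearts, against 60.08, 66.92, 65.42 and 58.15 CPM in PBS_GFP hearts. No C26_GFP heart reached down to a PBS_GFP value, and the log2 change was 0.38 ± 0.08 (95% interval 0.20 to 0.55, edgeR adjusted p = 0.00146). Lamp1, at chr8:13159135-13175338 on the plus strand, averaged 485 ± 21.2 CPM in C26_GFP hearts and 510 ± 24.4 CPM in PBS_GFP hearts (SD, n = 10 and 4). Its log2 value was -0.07 ± 0.05 (95% interval -0.17 to 0.03, adjusted p = 0.28), and the upper end of that interval is below the lower end of the Lamp2 interval.

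Of the V-ATPase genes 1 rose and 1 fell among 18 tested (11.1%), with a median log2 change of 0.00, and both are V1 subunits. Atp6v1c1, the C subunit that joins V1 to V0, lies at chr15:38661904-38692444 on the plus strand. It had 20.93, 23.37 and 27.22 CPM in the lowest, median and highest C26_GFP hearts, against 22.59, 19.69, 19.22 and 19.48 CPM in PBS_GFP hearts. In all, 7 of 10 C26_GFP hearts were above the highest PBS_GFP heart, and the log2 change was 0.22 ± 0.07 (1.16-fold, edgeR adjusted p = 0.0215), a call that ended when PBS_GFP replicate 2, 3 or 4 was left out (adjusted p 0.0624 to 0.149). PBS_REVERBa hearts, which had no tumour, were in the same range, at 22.1, 24.92, 24.14, 23.56 and 24.11 CPM.

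Atp6v1b2, the B subunit of the ATP-hydrolysing ring, lies at chr8:69088736-69113717 on the plus strand. It had 71.74, 83.13 and 107.7 CPM in the lowest, median and highest C26_GFP hearts, against 98.53, 91.82, 94.11 and 106.7 CPM in PBS_GFP hearts. As many as 8 of 10 C26_GFP hearts were below the lowest PBS_GFP heart, while replicate 7, which also had the highest Ctsl, was above all of them. The log2 change was -0.22 ± 0.08 (edgeR adjusted p = 0.0367), and it did not pass without any 1 of 8 libraries, PBS_GFP replicates 1, 3 and 4 and C26_GFP replicates 1, 3, 4, 8 and 9 (adjusted p 0.0514 to 0.147). PBS_REVERBa hearts again lay near the tumour groups, at 86.24, 83.15, 69.39, 81.23 and 98.0 CPM.

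The other 7 V1 subunits had log2 values between -0.20 for the catalytic Atp6v1a (adjusted p = 0.0582) and 0.36 ± 0.15 for the regulatory Atp6v1h (adjusted p = 0.0707). None of 7 V0 subunits passed, with log2 values from -0.15 for Atp6v0a2 to 0.15 for Atp6v0d1, which links the ring to the rotor. Both tested accessory subunits had values below 0, Atp6ap1 at -0.13 ± 0.05 (adjusted p = 0.0719) and Atp6ap2, the prorenin receptor, at -0.11 ± 0.09 (0.389). Summed over the 25 genes, V-ATPase transcripts averaged 954 ± 27.8 CPM in C26_GFP hearts and 988 ± 18.9 CPM in PBS_GFP hearts (SD, n = 10 and 4). Summed over the 18 cathepsins they averaged 2149 ± 107.5 CPM in C26_GFP hearts and 1983 ± 67.6 CPM in PBS_GFP hearts. Both pairs of ranges overlapped.

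**Figure D2:**
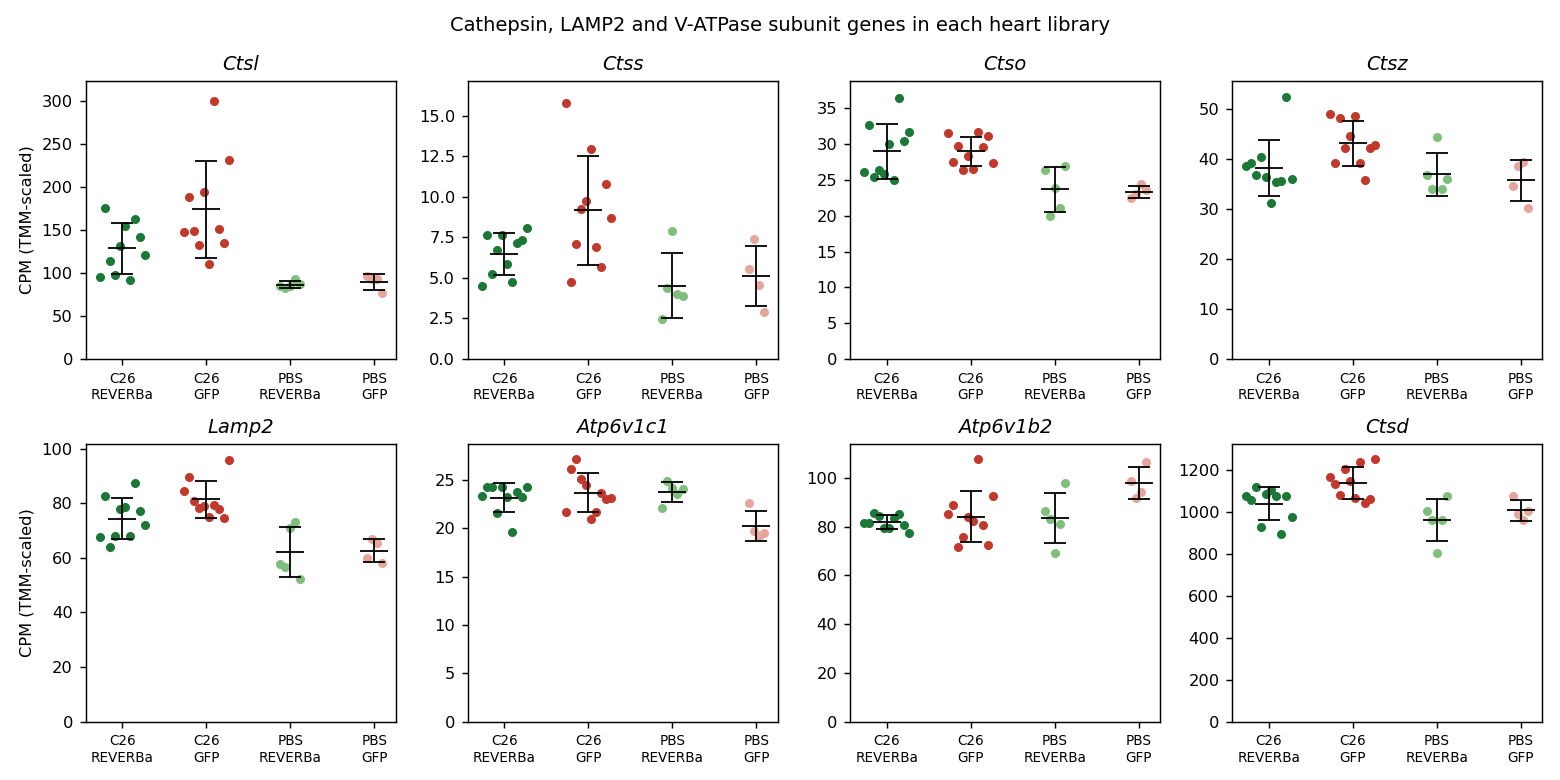
Level in CPM (vertical axes, from 0, scaled by TMM factors) of the 7 members that changed in C26_GFP against PBS_GFP hearts, and of Ctsd, in each of the 29 libraries (points), with the group mean and SD (bars). All 10 C26_GFP hearts lie above the PBS_GFP hearts for Ctsl, Ctso and Lamp2, and the PBS_REVERBa hearts lie near the tumour groups for Atp6v1c1 and Atp6v1b2. The share of all genes without overlap between groups was not counted.

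Markers of several cell types moved with the tumour in the same comparison. Of 10 fibroblast markers tested 4 rose and none fell, of 9 endothelial markers 3 rose and 1 fell, of 5 mast cell markers 1 fell, of 6 adipocyte markers 1 rose and of 7 hepatocyte markers 2 fell. Their summed levels in C26_GFP against PBS_GFP hearts were 1326 to 2048 against 1205 to 1537 CPM for fibroblasts, 1188 to 1424 against 1298 to 1351 CPM for endothelium, 7.15 to 12.9 against 17.7 to 28.7 CPM for mast cells, 251.0 to 498.9 against 277.1 to 289.9 CPM for adipocytes and 13.9 to 67.0 against 1.94 to 126.9 CPM for hepatocytes. For hepatocytes the median sum was 26.58 CPM in C26_GFP and 6.35 CPM in PBS_GFP hearts, the other way from the 2 markers that fell. The part of all these cell types in the members' changes was not tested. Of 7 smooth muscle and pericyte markers 1 fell (14.3%), and the 1 tested T and NK cell marker rose. The shares of mast cell, adipocyte, and smooth muscle and pericyte markers were below the 28.2% of all genes, and that of hepatocyte markers was near it. Those of fibroblast (40.0%) and endothelial markers (44.4%) were above it. No tested atrial, epicardial and mesothelial, neutrophil or erythroid marker passed. Of 15 macrophage and monocyte markers tested, 8 rose and none fell in C26_GFP hearts (53.3%, median log2 change 0.61). The summed level of the list was 515.3 to 874.4 CPM in C26_GFP hearts, against 443.7 to 559.3 CPM in PBS_GFP hearts, and no marker was at 0 in every library. In whole-heart RNA, a change in the number of cells of a type and a change in RNA per cell cannot be told apart.

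With the mean macrophage marker level as a covariate, the log2 change of Ctsl was 1.12 (edgeR adjusted p = 0.00196) and that of Lamp2 was 0.35 (0.0226), and both passed. Ctss was at -0.095 (0.815), Ctsz at 0.03 (0.9), Ctso at 0.23 (0.149), Atp6v1c1 at 0.23 (0.0715) and Atp6v1b2 at -0.06 (0.693), and these 5 did not pass. Ctsd passed in that fit at 0.26 (0.0355), Ctsb at -0.29 (0.0199) and Ctsc at -0.53 (0.0238). Ctss and Ctsc are the members whose value moved farthest, each to the other side of 0. The covariate differed between the groups, so its part and that of the tumour cannot be fully told apart.

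**Figure D3:**
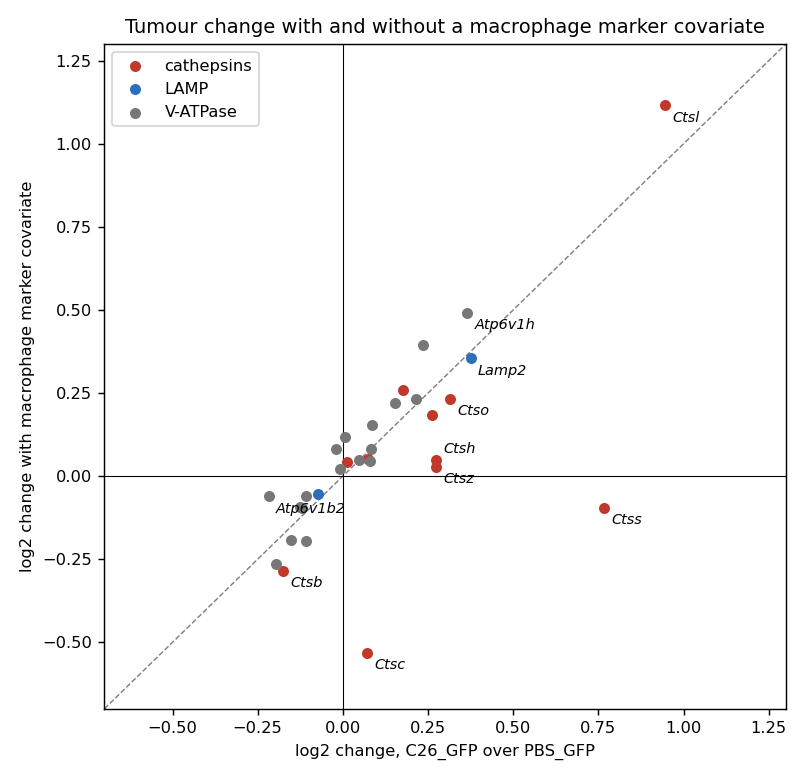
Log2 change of the 31 tested members in C26_GFP over PBS_GFP hearts without (horizontal axis) and with (vertical axis) the mean macrophage marker level as a covariate; the dashed line marks equal values and colours mark the gene families. Ctsl lies above the line and Lamp2 near it, while Ctss, Ctsz, Ctsh and Ctsc lie below it.

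The second comparison asks what the REV-ERBα vector did in mice with a tumour. None of the 31 members passed in C26_REVERBa against C26_GFP hearts, against 7.2% of all genes tested (3.75% higher and 3.45% lower). An unadjusted edgeR p under 0.05 was found for 9 of the 31 members, against 3136 of all 12928 genes tested. DESeq2 called 1 member, Ctsl, lower, and limma voom called 3 lower and 1 higher. This comparison shares its C26_GFP hearts with the first, so opposite signs in the 2 comparisons are not independent of each other.

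Ctsl came nearest to the threshold. It had 91.84, 126.7 and 175.5 CPM in the lowest, median and highest C26_REVERBa hearts, against 111.0, 150.1 and 299.9 CPM in C26_GFP hearts. The groups overlapped widely, with 3 of 10 C26_REVERBa hearts below the lowest C26_GFP heart. The log2 value was -0.44 ± 0.14 (0.74-fold, 95% interval -0.72 to -0.15, edgeR adjusted p = 0.0531), and it passed in 5 of 12 alternative fits and when any 1 of 8 hearts was left out, C26_REVERBa replicates 2, 6, 8 and 9 and C26_GFP replicates 3, 4, 6 and 9.

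Values of the other members with an unadjusted p under 0.05 ran in both directions. Ctss had 4.52, 6.91 and 8.09 CPM in the lowest, median and highest C26_REVERBa hearts, against 4.78, 8.96 and 15.8 CPM in C26_GFP hearts, with a log2 value of -0.51 ± 0.19 (edgeR adjusted p = 0.0889). Atp6v1h, at 7.61 ± 1.37 CPM in C26_REVERBa hearts and 9.60 ± 2.06 CPM in C26_GFP hearts (SD, n = 10 each), had a log2 value of -0.33 ± 0.11 (adjusted p = 0.0658). Ctsz, Lamp2, Atp6v0d1 and Ctsd had log2 values of -0.18, -0.13, -0.13 and -0.13, with adjusted p from 0.112 to 0.186. Ctsb and Atp6v1a were higher in the mean of C26_REVERBa hearts, both at a log2 value of 0.12 (adjusted p 0.135 and 0.191). Of the genes that changed with the tumour, Ctso showed next to no difference, at 0.00 (95% interval -0.14 to 0.13), as did Atp6v1c1 at -0.03 (-0.14 to 0.07) and Atp6v1b2 at -0.04 (-0.16 to 0.08). Macrophage markers were at 471.0 to 644.8 CPM summed in C26_REVERBa hearts, against 515.3 to 874.4 CPM in C26_GFP hearts, and 3 of 15 were lower. Among other cell types, 1 of 5 mast cell, 1 of 7 smooth muscle and pericyte and 1 of 12 cardiomyocyte markers were higher. Of 10 fibroblast markers 1 was lower. Each of these shares was above the 7.2% of all genes, but outside macrophages it rests on 1 marker. No tested marker of the remaining cell types passed. With the mean macrophage marker level as a covariate 2 members were lower, Ctsl and Atp6v1h, and 1 was higher, Ctsc.

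**Figure D4:**
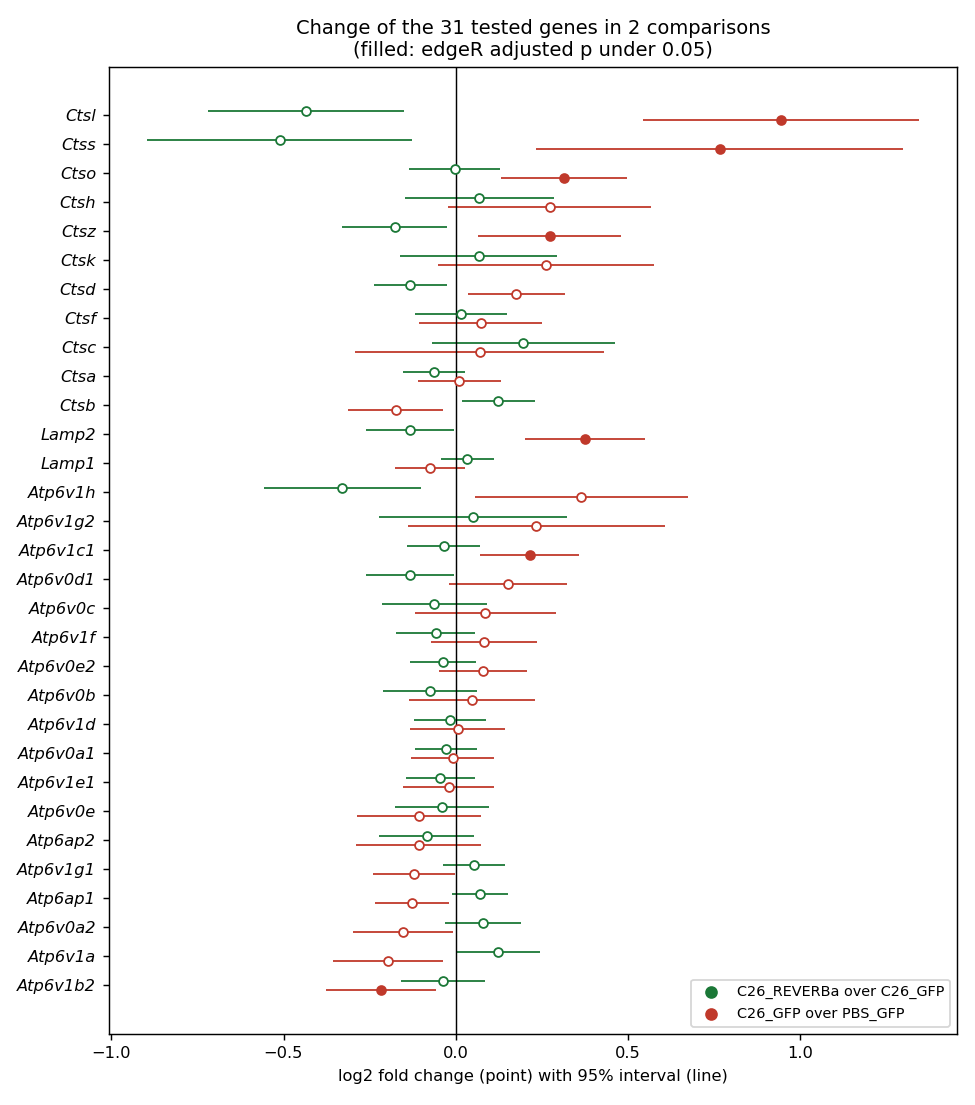
Log2 fold change of the 31 tested members (points) with its 95% interval (lines) in C26_REVERBa over C26_GFP hearts and in C26_GFP over PBS_GFP hearts; filled points have an edgeR adjusted p under 0.05. There are 7 filled points in C26_GFP over PBS_GFP, with Ctsl highest, and none in C26_REVERBa over C26_GFP.

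In mice without a tumour no member passed, as for all genes (0.0% called in PBS_REVERBa against PBS_GFP hearts by edgeR). DESeq2 and limma voom also called no member. At an unadjusted edgeR p under 0.05 were 530 of all 12928 genes and 4 of the 31 members. These were Atp6v1c1 (log2 0.22), Atp6v1b2 (-0.22), Atp6ap2 (-0.26) and Atp6v0e (-0.24), each with an adjusted p of 1.0. For Atp6ap2 all 5 PBS_REVERBa hearts (17.4 to 19.5 CPM) were below the lowest of the PBS_GFP hearts (19.6 to 24.1 CPM). In groups this small such a separation can arise by chance, and its share over all genes was not counted. Ctsl was at 85.32, 82.86, 84.48, 92.73 and 87.69 CPM in PBS_REVERBa hearts, against 97.01, 93.14, 92.67 and 76.46 CPM in PBS_GFP hearts, which overlapped (log2 -0.06, 95% interval -0.50 to 0.39).

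The tumour was also compared with saline in mice with the REV-ERBα vector. There 2 of 31 members rose (6.45%), Ctso and Lamp2, and none fell, against 7.23% of all genes tested (4.05% higher and 3.19% lower). Ctso had 24.94, 28.21 and 36.51 CPM in the lowest, median and highest C26_REVERBa hearts, against 26.4, 19.99, 23.91, 21.07 and 27.03 CPM in PBS_REVERBa hearts (log2 0.28 ± 0.09, edgeR adjusted p = 0.0418). Lamp2 had 64.13, 74.43 and 87.27 CPM in the lowest, median and highest C26_REVERBa hearts, against 57.7, 56.5, 70.79, 72.99 and 52.3 CPM in PBS_REVERBa hearts (log2 0.25 ± 0.08, adjusted p = 0.0481). For both genes the groups overlapped, 5 of 10 C26_REVERBa hearts lying above the highest PBS_REVERBa heart.

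Both calls depended on single hearts. Ctso did not pass when any 1 of 8 hearts was left out (C26_REVERBa replicates 2, 6, 8, 9 and 10 and PBS_REVERBa replicates 2, 3 and 4, adjusted p 0.0608 to 0.138), and Lamp2 when any 1 of 9 was (C26_REVERBa replicates 2, 5, 6, 8, 9 and 10 and PBS_REVERBa replicates 1, 2 and 5, adjusted p 0.0529 to 0.18). Ctsl was just outside the threshold at a log2 value of 0.57 ± 0.18 (1.48-fold, edgeR adjusted p = 0.0514), although 9 of 10 C26_REVERBa hearts were above the highest PBS_REVERBa heart. It passed in 6 of 12 alternative fits and in 3 of the 15 that left out 1 library (C26_REVERBa replicate 1, 4 or 7). Ctss was at 0.50 ± 0.27 (adjusted p = 0.26) and Ctsz at 0.05 ± 0.10 (0.804). In these groups 5 of 15 macrophage markers rose (33.3%, against 7.23% of all genes tested). Their summed levels were 471.0 to 644.8 CPM in C26_REVERBa hearts and 371.1 to 500.6 CPM in PBS_REVERBa hearts. Among other cell types, 2 of 10 fibroblast, 1 of 2 neutrophil, 1 of 5 mast cell and 1 of 6 adipocyte markers rose. Falls were 1 each among 5 mast cell, 9 endothelial, 7 smooth muscle and pericyte, and 12 cardiomyocyte markers.

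No member's tumour difference was shown to depend on the vector. The interaction is the tumour effect with REV-ERBα minus that with GFP. In its test 0 members passed by edgeR, DESeq2 or limma voom, against 0.0% of all genes by edgeR. An unadjusted edgeR p under 0.05 was found for 3 of the 31 members, against 1357 of all 12928 genes. These members were Atp6v1c1 at -0.25, Atp6v1h at -0.44 and Ctsb at 0.20 on the log2 scale (lowest edgeR adjusted p = 0.407). For Ctsl the interaction was -0.38 with a 95% interval of -0.91 to 0.15 (adjusted p = 0.612), and for Lamp2 it was -0.12 with an interval of -0.36 to 0.11 (0.737).

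Ctsl varied more among tumour-bearing hearts than among the others, its SD being 29.7 CPM in C26_REVERBa, 56.5 in C26_GFP, 3.83 in PBS_REVERBa and 9.12 in PBS_GFP hearts. Its relation to the other 6 genes that changed and to the macrophage marker mean was therefore taken within each tumour group, 14 relations in all on log2(CPM + 1), each with a two-sided permutation test of 100000 resamples. In C26_REVERBa hearts Ctsl and Lamp2 varied together (Pearson r = 0.89, permutation p = 0.00113, adjusted over the 14 relations 0.0158; Spearman rho = 0.87, p = 0.00237, adjusted 0.0332; n = 10), and r was 0.98 without the 2 hearts farthest from the median of Lamp2. Ctsl and Ctso in the same hearts had r = 0.80 (permutation p = 0.00838, adjusted 0.0391) and rho = 0.78 (p = 0.011, adjusted 0.0773), and r was 0.67 without the 2 farthest hearts. In C26_GFP hearts the corresponding r was 0.50 with Lamp2 (permutation p = 0.139, adjusted 0.243; rho = 0.59, p = 0.0814, adjusted 0.19; r = 0.30 without the 2 farthest) and 0.27 with Ctso (p = 0.449, adjusted 0.572; rho = 0.33, p = 0.35, adjusted 0.446; r = -0.23 without the 2 farthest). There Ctsl varied with Atp6v1b2 (r = 0.83, permutation p = 0.00385, adjusted 0.0269; rho = 0.68, p = 0.035, adjusted 0.163), with r = 0.71 without the 2 farthest hearts and 0.92 over the 7 hearts up to 10000000 counts. In C26_REVERBa hearts that pair had r = -0.22 (permutation p = 0.53, adjusted 0.618; rho = -0.14, p = 0.708, adjusted 0.826; r = -0.28 without the 2 farthest). Ctsl and the macrophage marker mean had r = 0.53 in C26_REVERBa hearts (permutation p = 0.124, adjusted 0.243; rho = 0.49, p = 0.154, adjusted 0.24; r = 0.083 without the 2 farthest) and -0.64 in C26_GFP hearts (permutation p = 0.0477, adjusted 0.128; rho = -0.56, p = 0.0952, adjusted 0.19; r = -0.73 without the 2 farthest and -0.71 over the 7 hearts up to 10000000 counts). With Ctss, r was 0.63 in C26_REVERBa hearts (permutation p = 0.0547, adjusted 0.128; rho = 0.58, p = 0.089, adjusted 0.19; r = 0.25 without the 2 farthest) and -0.43 in C26_GFP hearts (p = 0.216, adjusted 0.333; rho = -0.58, p = 0.0886, adjusted 0.19; r = -0.45 without the 2 farthest). With Atp6v1c1, r was 0.61 in C26_REVERBa hearts (permutation p = 0.0458, adjusted 0.128; rho = 0.53, p = 0.122, adjusted 0.213), where it rests on the 2 farthest hearts (r = 0.052 without them), and -0.025 in C26_GFP hearts (p = 0.947, adjusted 0.979). With Ctsz, r was -0.011 in C26_REVERBa hearts and -0.41 in C26_GFP hearts (permutation p = 0.979 and 0.238, adjusted 0.979 and 0.333). None of these relations of Ctsl to the macrophage marker mean, Ctss, Atp6v1c1 or Ctsz passed after adjustment. The difference in correlation between the groups was not tested, and Ctsl was chosen as the leading gene after its values were seen.

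Genes of the surrounding pathway were taken from 6 lists. Of 37 lysosomal hydrolases tested, 9 rose and 1 fell in C26_GFP against PBS_GFP hearts, with a median log2 change of 0.14. Gaa, the acid alpha-glucosidase that degrades glycogen in lysosomes, averaged 131 ± 13.8 CPM in C26_GFP hearts and 91.4 ± 6.68 CPM in PBS_GFP hearts (SD, n = 10 and 4; log2 0.51 ± 0.08, edgeR adjusted p = 4.95e-05). Man2b1, a lysosomal mannosidase, rose by 0.44 ± 0.09 and Plbd2 by 0.28 ± 0.07 on the log2 scale. Arsb, arylsulfatase B, was the hydrolase that fell, with 20.9 ± 3.38 CPM in C26_GFP hearts and 30.1 ± 1.14 CPM in PBS_GFP hearts.

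Lysosomal membrane proteins and transporters moved both ways, 4 higher and 3 lower of 28 tested (median log2 0.03). Cd63, a tetraspanin of late endosomes and lysosomes, averaged 53.7 ± 6.08 CPM in C26_GFP hearts and 29.8 ± 0.91 CPM in PBS_GFP hearts, which is a log2 change of 0.85 ± 0.11 (edgeR adjusted p = 2.41e-06). Sidt2 and Scarb2, the receptor that carries glucocerebrosidase to lysosomes, rose by 0.40 and 0.30, and Mfsd8, a lysosomal channel or transporter, fell by 0.52 on the log2 scale. In the list for mannose 6-phosphate sorting, by which most hydrolases reach the lysosome, 3 of 15 rose (Ap3b1 0.63, Gga1 0.32 and Igf2r, the larger mannose 6-phosphate receptor, 0.31) and Ap1s1 fell (-0.26).

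Among 12 tested V-ATPase partners and assembly factors 4 rose and 3 fell, with a median of -0.03. Dmxl1, of the complex that reassembles V1 with V0, fell by 0.34 and Tldc1 by 0.36, while Tcirg1, which encodes the a3 form of the V0 a subunit, rose by 0.50 and Rnasek by 0.23 on the log2 scale. Of the TFEB family and the genes of lysosomal mTORC1 signalling, 5 rose and 1 fell of 21. Among the 5 were Flcn (folliculin, 0.53 ± 0.11, edgeR adjusted p = 0.000524), Fnip2 (0.60 ± 0.19), Tsc2 (0.28) and Tsc1 (0.23). No gene of the TFEB family itself (Tfeb, Tfe3, Mitf and Tfec) was among those that passed. No cathepsin inhibitor changed, with 4 of 9 tested and a median log2 value of -0.19. The shares that passed were 27.0% of hydrolases, 25.0% of membrane proteins, 26.7% of sorting genes, 58.3% of V-ATPase partners and 28.6% of TFEB and mTORC1 genes, against 28.2% of all genes.

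**Figure D5:**
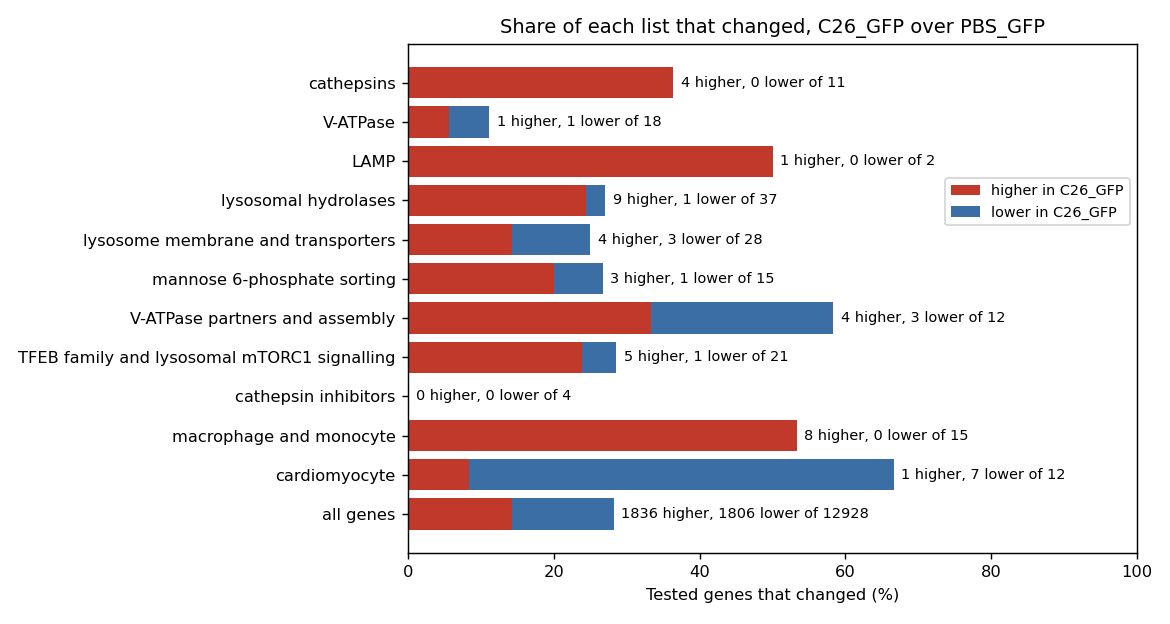
Share of the tested genes of each list (horizontal axis, in %) that were higher or lower in C26_GFP than in PBS_GFP hearts at an edgeR adjusted p under 0.05, with the counts beside each bar. The genes that passed were all higher for cathepsins (4 of 11), LAMP (Lamp2 alone, 1 of 2) and macrophage markers (8 of 15). V-ATPase genes have 1 of each among 18, and cardiomyocyte markers are mostly lower.

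In C26_REVERBa against C26_GFP hearts the lists stood on either side of the 7.2% of all genes that passed. Membrane genes were at 14.3%, sorting genes at 6.67%, hydrolases at 2.7% and the other 3 lists at 0.0%. Cd63 averaged 39.0 ± 6.51 CPM in C26_REVERBa hearts and 53.7 ± 6.08 CPM in C26_GFP hearts, which is a log2 change of -0.46 ± 0.08 (edgeR adjusted p = 0.0044). Sidt2 fell by 0.20 and Mfsd8 rose by 0.23 on the log2 scale, which with Ostm1 made 2 higher and 2 lower of 28 membrane genes. Of 37 hydrolases 1 fell, and Gga1 fell by 0.21 (adjusted p = 0.0191) as 1 of 15 sorting genes. None of 12 V-ATPase partners, 21 TFEB and mTORC1 genes or 4 cathepsin inhibitors passed by edgeR. At an unadjusted edgeR p under 0.05 were 3, 6 and 2 of them, against 3136 of all 12928 genes. In C26_REVERBa against PBS_REVERBa hearts, 3 of 37 hydrolases (8.11%, Man2b1 and Gaa among them) and 2 of 15 sorting genes (13.3%, Igf2r and Ap3b1) rose. No gene of those lists fell. Among 28 membrane genes Scarb2 rose and Abcb9 fell (7.14%), and no gene of the other 3 lists passed by edgeR. The share of all genes was 7.23%. The genes named here were picked after their values were seen.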

How the data were processed

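For whole-heart RNA, the table the authors deposited gives raw counts (whole numbers) and a counted length in bases for each RefSeq transcript. STAR 2.4.2a, DESeq2 1.24.0 and the mm10 build are named per the submitters' processing notes, without their roles. The sources used here do not give the counting tool or its strand setting. Per the labels' protocols, a stranded kit was used without selection of polyadenylated RNA. One per-sample column that matched no sample's labels was not used.

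These counts were tested with edgeR 4.0.16 under R 4.3.3 (filterByExpr with minimum count 10 and minimum total 15, TMM scaling, 1 quasi-likelihood fit with 4 group means over 29 libraries, checked on simulated data). The threshold was a p under 0.05 after Benjamini-Hochberg adjustment over all 12928 genes tested, and SE is the log2 change divided by the square root of F. Each heart came from its own animal. At 3207497 to 16853646 counts per library, a gene near 5 CPM rests on few reads in the smallest libraries. All 406 pairs of libraries differed by more than sampling noise (chi-square per degree of freedom of at least 2.73). Starts were raised by 1 after matching to RefSeq.

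Members, lists and tests were chosen with earlier results of these data known. Members that passed any test were named with values by heart, the other members by level or count, and of each pathway list up to 4 genes with the smallest p (3 for the REV-ERBα comparison). One gene that this rule names is not reported here. Alternatives were RLE and upper quartile scaling, DESeq2 1.42.0, limma 3.58.1 voom, other filters, a replicate block, only the compared groups, no libraries above 10000000 counts, thinning to 3207497 counts, macrophage or atrial marker covariates, and leaving out each library.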

Additional observations from a re-analysis of the deposited data

Results flagged for a closer look

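In groups of 4 to 10 hearts, the highest or lowest heart stood apart from its group by Dixon's 95% criterion in 11 of the 124 combinations of 31 members and 4 groups, where chance flags about 1 in 20.

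Of the 11, 3 fell on PBS_REVERBa replicate 3, which had the highest level of its group for Atp6ap2 (19.5 CPM, next 18.0), Ctsh (15.3, next 11.4) and Ctsz (44.3, next 36.8). PBS_GFP replicate 3 was highest for Atp6v0c (21.5 CPM, next 15.1) and lowest for Ctsa (88.1, next 91.6). PBS_GFP replicate 1 had the highest Atp6v1c1 of its group (22.6 CPM, next 19.7), and without it the log2 change of that gene still passed in C26_GFP against PBS_GFP hearts.

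Single hearts stood apart for 5 further values. Ctsz was at 52.3 CPM in C26_REVERBa replicate 9 (next 40.4). In C26_GFP hearts Atp6v0a2 was at 110.0 CPM in replicate 6 (next 92.6) and Atp6v0c at 14.8 CPM in replicate 5, the lowest (next 16.5). In PBS_REVERBa hearts Ctsb was at 665.0 CPM in replicate 1 (next 615.0) and Atp6v1a at 48.4 CPM in replicate 5 (next 42.1).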

How the results depend on the processing

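Ctsl and Lamp2 passed, higher in C26_GFP than in PBS_GFP hearts, in all 12 alternative fits and in all 14 that left out 1 library, and Ctso passed in 9 and 14 of these. In that comparison 6 members were higher. There were 2 without the libraries above 10000000 counts, 3 with the macrophage covariate, 5 with upper quartile scaling and 5 with only the compared groups. The count was 7 with limma voom, 7 with a filter of 5 CPM and 8 with the atrial covariate. It was 3 to 8 with 1 library left out (3 without PBS_GFP replicate 4). One member was lower; 2 were with upper quartile scaling, 2 with DESeq2, 5 with limma voom, 2 with the macrophage covariate, 0 without a filter, 0 with only the compared groups, 0 without the libraries above 10000000 counts and 0 after thinning. With 1 library left out the count was 0 to 4 (0 without PBS_GFP replicates 1, 3 or 4 or C26_GFP replicates 4 or 8, 2 without PBS_GFP replicate 2 or C26_GFP replicate 9, and 4 without C26_GFP replicate 6). All genes called numbered 3642, and 1972 without the libraries above 10000000 counts. With the macrophage covariate the log2 value of Ctsc was -0.53 and that of Ctss was -0.095, where both were above 0 without it.

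In C26_REVERBa against C26_GFP hearts 0 members were higher, 1 with limma voom and 1 with the macrophage covariate; 0 were lower, 1 with DESeq2, 3 with limma voom, 1 with a filter of 5 CPM, 1 without the libraries above 10000000 counts and 2 with the macrophage covariate. Leaving out 1 library gave 0 to 3 lower (1 without C26_REVERBa replicates 6 or 8 or C26_GFP replicate 4, 2 without C26_REVERBa replicate 2 or C26_GFP replicates 3, 6 or 9, and 3 without C26_REVERBa replicate 9). All genes called numbered 931, 1772 with limma voom, 327 with only the compared groups and 295 to 1778 with 1 library left out (295 without C26_REVERBa replicate 7, 335 without C26_GFP replicate 10, 1778 without C26_REVERBa replicate 9 and 1723 without C26_GFP replicate 6). In PBS_REVERBa against PBS_GFP hearts limma voom and the fit of only the compared groups each called 1 gene of all, and for the interaction DESeq2 called 15 and limma voom 4; none was a member.

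In C26_REVERBa against PBS_REVERBa hearts 2 members were higher. There were 3 with upper quartile scaling, 3 with DESeq2, 3 with limma voom and 3 with a filter of 5 CPM. The count was 1 with RLE scaling, 1 without a filter and 1 with only the compared groups. It was 1 without the libraries above 10000000 counts, 1 after thinning and 0 with the macrophage covariate. With 1 library left out it was 0 to 3 (0 without C26_REVERBa replicates 2, 6, 8, 9 or 10 or PBS_REVERBa replicate 2). All genes called numbered 935, 344 with the macrophage covariate and 476 to 1201 with 1 library left out (476 without PBS_REVERBa replicate 5 and 521 without replicate 2). Where the cause of a shift is not plain from the fit itself, it was not tested.

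Replicate numbers are shared between groups but did not pair the hearts, since 0 of 4, 2 of 10, 0 of 4 and 0 of 5 same-numbered pairs had a correlation of deviations over 0.1, and 1 heart at most correlated best with its own number. With the replicate block, 4 members were higher and 1 was lower in C26_GFP against PBS_GFP hearts, 291 genes of all were called in C26_REVERBa against C26_GFP hearts, and 0 members and 450 genes in C26_REVERBa against PBS_REVERBa hearts. The interaction was not fitted with only the compared groups, since it uses all 4. Depth limits Ctss, Ctsk, Atp6v1g2 and Atp6v1h most, with as few as 8, 16, 9 and 23 counts in a library.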
